A study of Mus musculus with 6 samples.

Results

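Mast cell genes were followed as a group of 8 named genes of the deposited table, which lists 34745 genes. They are *Tpsab1* and *Tpsb2*, *Cpa3*, *Mcpt4* and *Cma1*, *Fcer1a* and *Ms4a2*, and *Hdc*, matched by gene name, and all 8 have a row. *Tpsab1* drew attention to the group and was selected on its deposited counts in this same comparison, with reads in every KO library and none in any WT library, so its own difference is given as a description with no test. The other 7 were named to ask whether other mast cell genes come with it.

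The RNA-seq libraries, 3 from KDM5B-KO mice and 3 from littermate WT mice, were made from left ventricular cardiac fibroblasts taken on Day 7 after myocardial infarction (MI). Both the KO and the wild-type mice had a C57BL/6 background. The KO allele, made with CRISPR/Cas9, lacks the stretch of *Kdm5b* that encodes the JmjC domain, the part of this histone demethylase that carries its enzyme activity, and the reading frame is lost. Both groups were 8 to 10 weeks old, had the left anterior descending coronary artery permanently ligated and were male as the methods give it, so every library comes from an injured heart and none from an uninjured one. The KO was not limited to 1 cell type, and the fibroblasts were isolated from tissue and not described as sorted with a marker.

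Mast cells are resident immune cells of connective tissue, the heart included, that store mediators in granules and release them when antigen crosslinks IgE on their surface. Their granules hold tryptases, chymases and a carboxypeptidase bound to the proteoglycan serglycin, together with histamine, and mature connective tissue mast cells carry RNA of most of these proteases at high levels. They grow on stem cell factor, encoded by *Kitl*, through the receptor encoded by *Kit*, and need the transcription factors GATA2 and MITF.

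The libraries held between 12025403 and 15329427 counts. A count of 0 still allows up to 3 counts, which stood for 0.193 to 0.246 CPM, the count scaled to the size of the library. Fibroblast collagens and other markers of the labelled cell type were present in every library, with the 9 listed markers summing to 26500 to 30900 CPM in KO libraries and to 37100 to 39500 in WT libraries. *Kdm5b* itself averaged 103.3 CPM under the KO label and 120 under the WT label, a log2 fold change of -0.22 (SE 0.07, edgeR quasi-likelihood adjusted p = 0.0574), which did not pass the threshold of 0.05, so KO and WT here are the labels of the libraries. The counts cover the whole gene and not the deleted stretch alone. By Q-PCR and immunoblot, the paper found next to no KDM5B RNA or protein in cardiac fibroblasts of KO mice. The counts here do not show such a loss, and the reason was not tested. Of 14084 genes tested with edgeR, 4248 (30.2%) passed an adjusted p of 0.05, 2488 of them (17.7%) higher and 1760 (12.5%) lower in the KO libraries.

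The sequences of the tryptase pair are shown first, because *Tpsab1* and *Tpsb2* are neighbouring genes of one protease family and only *Tpsab1* had reads. Both stretches below are read 5′ to 3′ on the coding strand from the GENCODE transcripts of GRCm38, the build also called mm10, and are the 150 coding bases in which the genes are most alike, with capitals at the 18 bases where they differ. The *Tpsab1* stretch lies at chr17:25343446-25343667 on the minus strand and the *Tpsb2* stretch at chr17:25367597-25367819 on the plus strand, and each spans an intron.
Tpsab1: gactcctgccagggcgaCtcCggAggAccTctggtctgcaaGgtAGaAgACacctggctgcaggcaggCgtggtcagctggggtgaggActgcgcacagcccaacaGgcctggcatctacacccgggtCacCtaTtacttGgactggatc
Tpsb2: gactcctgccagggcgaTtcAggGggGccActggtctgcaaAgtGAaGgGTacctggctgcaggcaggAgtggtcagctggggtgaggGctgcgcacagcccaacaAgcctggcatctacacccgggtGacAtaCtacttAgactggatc
Over the aligned coding sequence, 629 of 827 bases were identical (76.1%), and the longest identical run was 39 bases. The reads were 150 bases long, and none of the 1007 windows of 150 bases in the longest-coding *Tpsab1* transcript occurred exactly in a transcript of another gene. With windows of 50 bases, 0 of 1107 did. The search covered 141767 annotated transcripts and exact matches only.

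*Tpsab1* has 2 annotated transcripts, which split after the first exon. In the transcript with 5 exons, exon 1 joins a second exon of 166 bases, whereas in the transcript with 2 exons it joins a long last exon of 1672 bases that starts where exon 3 of the other transcript starts and holds its last 2 introns. The 30 bases on either side of the junction are given here to show the difference, with capitals for the second exon of each transcript.
Tpsab1, 5 exons: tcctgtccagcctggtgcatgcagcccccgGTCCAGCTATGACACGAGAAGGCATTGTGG
Tpsab1, 2 exons: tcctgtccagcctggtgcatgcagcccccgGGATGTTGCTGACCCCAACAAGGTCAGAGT
RefSeq (GRCm38.p6) lists *Tpsab1* as a transcribed pseudogene and the other 7 genes as protein coding, and C57BL/6 mice, the strain of the reference genome, are known to lack the *Tpsab1* protease while still making RNA from the gene. The deposited counts are per gene, so they do not show which of the transcripts the reads came from.

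Reads from the tryptase gene *Tpsab1* (chr17:25343245-25345562, minus strand) were present in every KO library. The counts were 78, 77 and 111 in KO-1, KO-2 and KO-3 and 0 in each of WT-1, WT-2 and WT-3. The groups did not overlap, and the KO libraries lay close together. Their exact Poisson 95% intervals were 61.7 to 97.3, 60.8 to 96.2 and 91.3 to 134 counts, and these intervals cover counting error only. On the CPM scale the level was 6.39, 5.78 and 7.16, or 6.44 ± 0.692 (SD, n = 3), with a coefficient of variation of 10.7%. Set against 3 counts in each WT library, 0.209 CPM on average, *Tpsab1* was at least 30.8-fold higher, and at least 27.1-fold from the lowest KO library to the highest WT limit. Both folds rest on that limit of 3 counts, leave out the counting error of the KO libraries and carry no confidence level. *Tpsab1* passed the filter on low counts only through the libraries in which it is high. In this bulk RNA, fewer cells of a type and less RNA per cell cannot be told apart.

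Per length, *Tpsab1* stood near the middle of the detected genes. Its deposited level was 2.10, 1.88 and 2.35 FPKM in KO-1, KO-2 and KO-3, above 46.1%, 45.1% and 48.7% of the genes detected in the same library. The length behind these values is 3083 bases, more than the 2094 bases of its merged exons in GENCODE and close to the 3084 bases of its 2 transcripts added together. With counts divided by merged exon length for every gene, the level was 3.10, 2.77 and 3.46 per kilobase, above 48.8%, 47.4% and 51.5% of the detected genes. Of 20854 genes with any count, 45 (0.216%) had at least 20 counts in each KO library and at most 3 in each WT library. *Tpsab1* was the 1 gene of the mast cell lists among these 45, of which 20 were at 0 in every WT library and 35 had fewer KO counts than *Tpsab1*.

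No reads came from its partner *Tpsb2* (chr17:25366550-25368094, plus strand), the tryptase that mouse connective tissue mast cells make as protein, in any of the 6 libraries. The genes lie 21.0 kb apart, head to head. The KO libraries held 266 counts of *Tpsab1* and 0 of *Tpsb2*. Allowing 3 counts for this 0 gives *Tpsb2* up to 1.13% of the *Tpsab1* counts. As a share of the summed counts of the pair, its exact binomial upper limit was 1.38%. This share and the like shares given for other genes pool the reads of 3 libraries, cover counting error only and are taken against the gene that chose the group, so they are descriptions. *Tpsab1* thus had reads in 3 libraries without a read of the neighbouring tryptase.

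**Figure D1:**
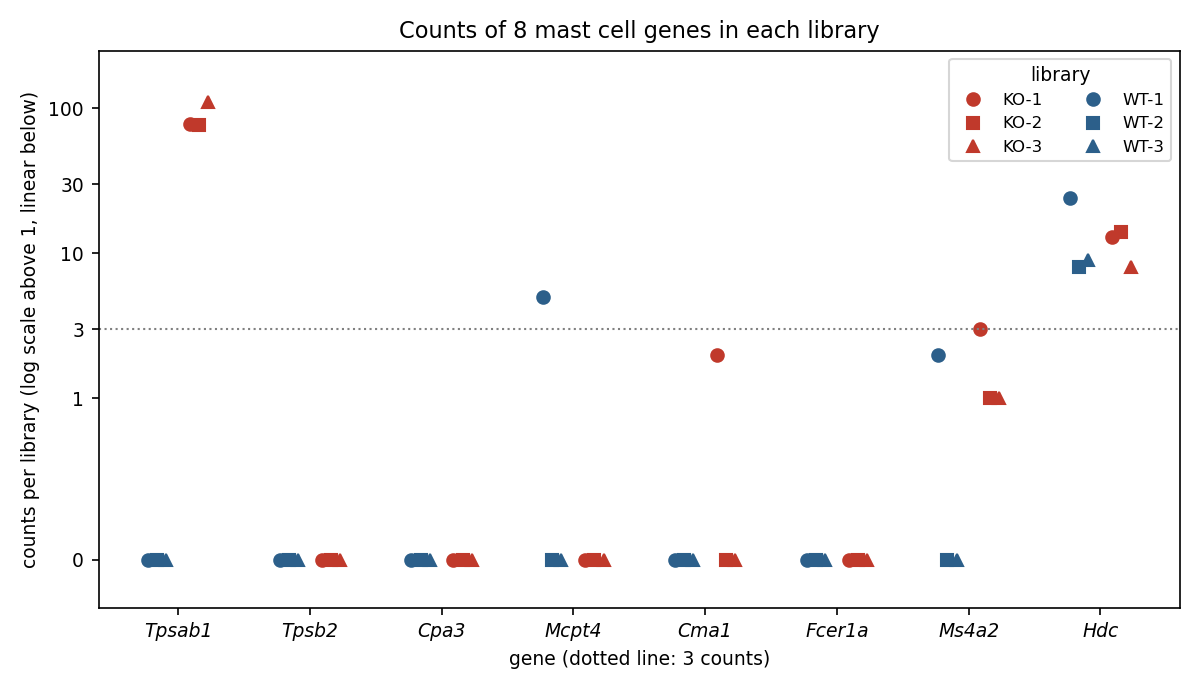
Counts of the 8 mast cell genes in each library, on an axis that is logarithmic above 1 count and linear below, with 1 point a library and a dotted line at 3 counts. The 3 KO points of *Tpsab1* lie between 77 and 111 with all WT points at 0, while *Hdc* is spread over 8 to 24 counts in both groups and the other 6 genes lie at 0 to 5.

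The other granule proteases were at or near 0. *Cpa3* (chr3:20215620-20242181), which encodes mast cell carboxypeptidase and is among the most abundant mast cell RNAs, had no read in any of the 6 libraries. The chymase gene *Mcpt4* (chr14:56059744-56062310) had 5 counts in WT-1 and 0 in the other 5 libraries. The chymase gene *Cma1* (chr14:55941453-55944661) had 2 counts in KO-1 and 0 elsewhere. All 3 genes are on the minus strand. None of them was above 3 counts in a KO library, and the only library above that limit was WT-1. Beside the 266 counts of *Tpsab1*, the KO libraries held 2 of *Cma1*, a share of 0.746% of the sum of those genes (exact binomial 95% interval 0.0905 to 2.67), and 0 of *Cpa3* and of *Mcpt4*.

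The chains of the high-affinity IgE receptor were also at or near 0. *Fcer1a* (chr1:173221284-173227214, minus strand), the chain that binds IgE, had no read in any of the 6 libraries. *Ms4a2* (chr19:11615523-11623719, minus strand), the beta chain that amplifies the signal, had 3, 1 and 1 counts in KO-1, KO-2 and KO-3 and 2, 0 and 0 in WT-1, WT-2 and WT-3. The groups overlapped, and no library was above 3 counts. The *Ms4a2* counts of the KO libraries were 1.85% of the summed *Ms4a2* and *Tpsab1* counts (exact binomial 95% interval 0.602 to 4.25).

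*Hdc* (chr2:126593667-126619299, minus strand), the enzyme that makes histamine from histidine, was the only other member that passed the filter on low counts. Its counts were 13, 14 and 8 in KO-1, KO-2 and KO-3 and 24, 8 and 9 in WT-1, WT-2 and WT-3. The highest value was in a WT library, the groups overlapped, and 8 counts was the lowest value in both. The mean level was 0.877 ± 0.313 CPM (SD, n = 3) in the KO libraries and 0.955 ± 0.629 in the WT libraries. The fitted log2 fold change was -0.15, and its sign turned to 0.53 without WT-1, to 0.15 without KO-3 and to 0.24 when the libraries were scaled to cardiomyocyte and macrophage markers. *Hdc* is also known from basophils, neutrophils and other myeloid cells. Over the 6 libraries the Pearson correlation of *Hdc* with *Tpsab1* was -0.07 on log2(CPM + 1), a description over libraries that form 2 groups.

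Summed without *Tpsab1*, the other 7 genes gave 18, 15 and 9 counts in KO-1, KO-2 and KO-3 and 31, 8 and 9 in WT-1, WT-2 and WT-3. The totals were 42 in the KO libraries and 48 in the WT libraries, and the groups overlapped. Without *Hdc*, the remaining 6 genes summed to 5, 1 and 1 against 7, 0 and 0 counts, or 7 in each group. Thus 1 of the 8 genes had libraries that did not overlap, or 1 of the 2 that passed the filter, beside 47.0% of all genes that passed it (24.7% with the KO libraries higher). That 1 was the gene that chose the group. Of the 8, 3 were at 0 and 5 did not exceed 3 counts throughout. Over all genes listed, 40.0% were at 0 and 50.4% did not exceed 3 counts, so these shares lie near the background and are no result about the group.

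The chymase gene *Mcpt4* and the carboxypeptidase gene *Cpa3* have motifs for GATA factors in the promoters that RefSeq gives, and *Gata2* is one of the genes described next, so these promoters are shown. Each line holds the 250 bases before the start in the RefSeq promoter table, 5′ to 3′ on the gene's strand, which is the minus strand for both, from GRCm38.p6 at chr3:20242182-20242431 for *Cpa3* and chr14:56062311-56062560 for *Mcpt4*. The RefSeq gene record of *Cpa3* reaches 28 bases into its stretch and that of *Mcpt4* does not. Capitals mark AGATAA or TGATAA on either strand.
Cpa3: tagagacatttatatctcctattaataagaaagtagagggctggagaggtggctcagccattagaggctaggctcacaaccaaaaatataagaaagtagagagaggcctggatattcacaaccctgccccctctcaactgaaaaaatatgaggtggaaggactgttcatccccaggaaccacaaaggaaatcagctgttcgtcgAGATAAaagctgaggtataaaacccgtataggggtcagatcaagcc
Mcpt4: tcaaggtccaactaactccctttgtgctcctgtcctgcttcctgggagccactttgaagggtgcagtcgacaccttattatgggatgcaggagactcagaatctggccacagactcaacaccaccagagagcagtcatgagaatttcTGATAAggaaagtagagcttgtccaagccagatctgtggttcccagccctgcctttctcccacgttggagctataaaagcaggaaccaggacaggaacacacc
RefSeq promoters were matched for 6 of the 8 genes, all but *Tpsab1* and *Tpsb2*. AGATAA or TGATAA occurred on either strand in 4 of these 6, with 3 matches in *Ms4a2*, 1 each in *Cpa3*, *Mcpt4* and *Fcer1a*, and 0 in *Cma1* and *Hdc*. The RefSeq gene record, which can hold starts further upstream, reached into the stretch for 4 of the 6, by 3 bases in *Fcer1a*, 28 in *Cpa3*, 71 in *Ms4a2* and all 250 in *Hdc*, and 4 genes had a match before the gene record, with 1 of the 3 matches in *Ms4a2*. Among 32851 promoters of the same length, 5452 (16.6%) held such a match. The shorter motif GATA, which lies within the longer ones, occurred in all 6 and in 53.6% of all promoters. A match of letters is a description and not a binding site.

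Outside the 8 genes, a list of 61 genes of the mast cell program was read from the same fit. Of these, 20 did not exceed 3 counts anywhere, 12 of them at 0, and 35 were tested. Among the tested genes 12 were higher and 9 lower in the KO libraries, and 14 did not pass, a called share of 60% beside the 30.2% of all genes tested. Their median log2 fold change was 0.07, against -0.02 for all genes tested. Scaling the libraries to cardiomyocyte and macrophage markers moved the median of all genes to 0.38 and gave 19 higher and 0 lower genes on the list. The number of lower genes was 7 by library size only, 6 with DESeq2 and its size factors and 10 by upper quartile. The 9 lower calls thus depend on the scaling. Leaving out 1 library at a time gave 12 to 14 higher and 3 to 7 lower genes, with the fewest lower genes without WT-3.

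**Figure D2:**
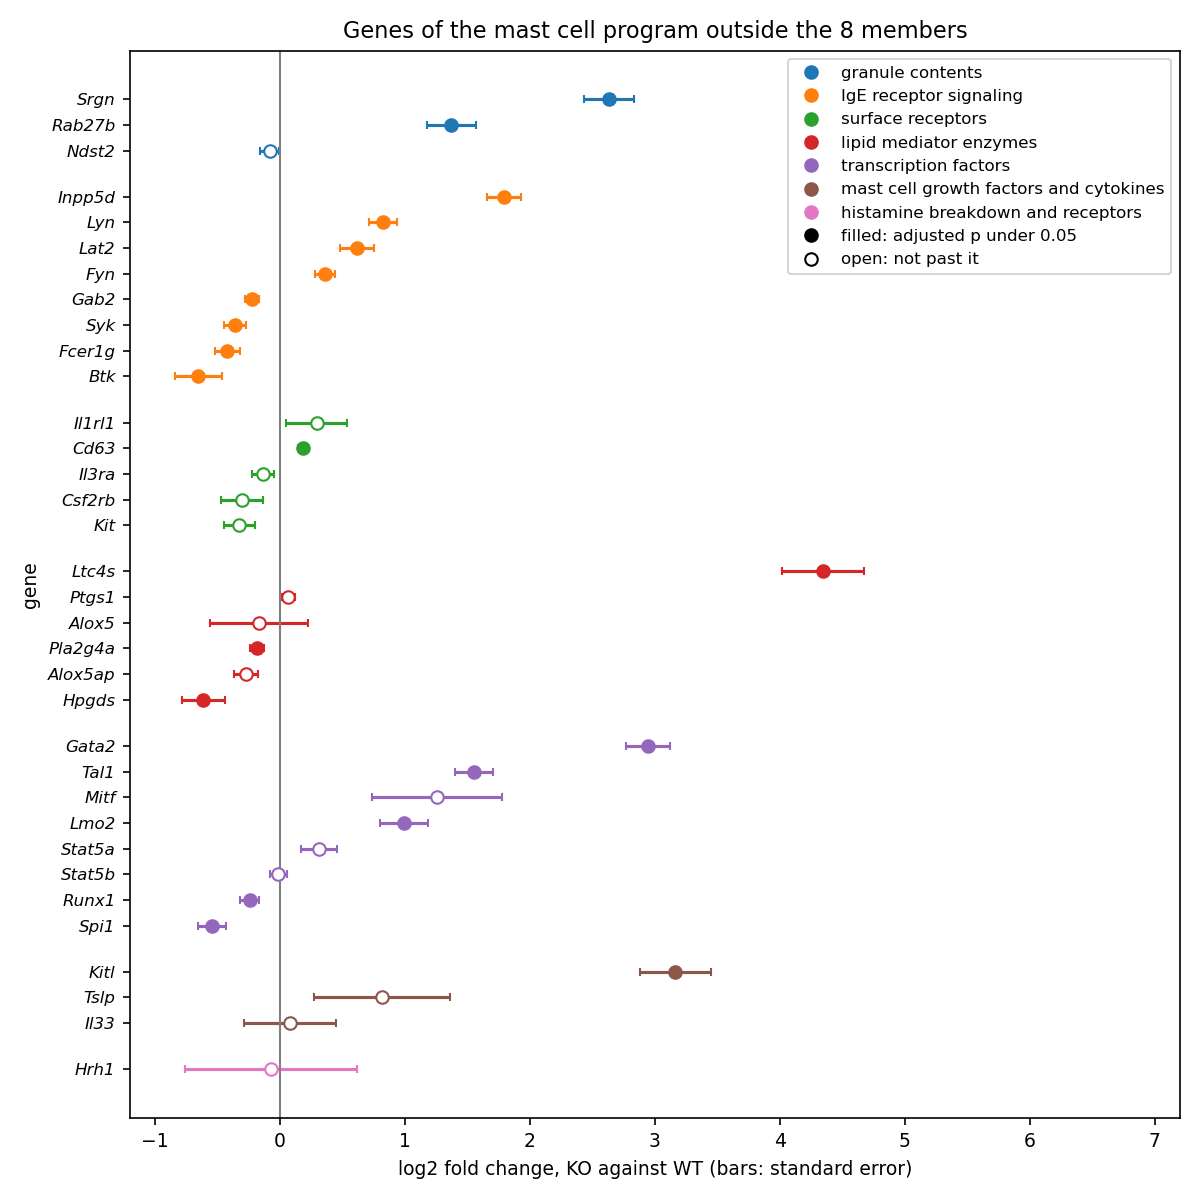
Log2 fold change (KO against WT, edgeR, bars: standard error, n = 3 libraries a group) of tested genes of the mast cell program outside the 8 members, by role. *Ltc4s*, *Kitl*, *Gata2* and *Srgn* lie above 2, whereas *Kit*, *Il1rl1* and *Il33* lie near 0 with open symbols.

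Among 12 further granule genes, 3 were tested, and *Srgn* and *Rab27b* rose, where 17.7% of all genes tested were higher. Of the 12, 7 did not exceed 3 counts in any library, beside 50.4% of all genes listed. *Mcpt1*, *Mcpt2*, *Cma2*, *Tpsg1* and *Gzmb* were at 0 in every library, and *Mcpt9* and *Tph1* did not exceed 2 counts. *Srgn*, the serglycin core protein on which granule proteases are stored and which endothelial and other blood cells also make, had 630, 453 and 614 counts in KO-1, KO-2 and KO-3 and 121, 88 and 80 in WT-1, WT-2 and WT-3. Every KO library was above every WT library, with a log2 fold change of 2.63 (SE 0.20, edgeR adjusted p = 5.4e-05). *Rab27b*, a small GTPase of granule release, rose by 1.37 (SE 0.20, edgeR adjusted p = 0.0015). *Ndst2*, an enzyme that sulfates heparin, did not pass (log2 fold change -0.08), but was called higher under the marker scaling (0.31, adjusted p = 0.0111).

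*Ctsg*, a cathepsin stored by mast cells and neutrophils, was too low to be tested and had 26, 8 and 12 counts in KO-1, KO-2 and KO-3 and 0 in each WT library. It lies in the chymase cluster of chromosome 14 that also holds *Mcpt4* and *Cma1*, and the protease genes of that cluster were looked at after these values were seen. Of 11 such genes, 8 did not exceed 3 counts and 5 were at 0. Besides *Ctsg* and *Mcpt4*, the exception was *Mcpt8*, a protease of basophils, with 17, 6 and 2 counts in KO-1, KO-2 and KO-3 and 0 in each WT library. These low counts did not overlap between the groups and were not tested.

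Of 8 tested genes of IgE receptor signaling, 4 were higher and 4 lower, beside 17.7% and 12.5% of all genes tested, and no program gene was lower under the marker scaling. *Inpp5d*, the inositol phosphatase that limits this signal, had 880, 706 and 834 counts in KO-1, KO-2 and KO-3 and 228, 280 and 232 in WT-1, WT-2 and WT-3, a rise of 1.79 (SE 0.14, edgeR adjusted p = 5.6e-05). The kinase genes *Lyn* and *Fyn* rose by 0.83 and 0.36 on the log2 scale, and the adaptor gene *Lat2* by 0.62. *Fcer1g*, the gamma chain that mast cells share with macrophages and other cells with Fc receptors, had 439, 463 and 487 counts in KO-1, KO-2 and KO-3 and 712, 580 and 666 in WT-1, WT-2 and WT-3. Its log2 fold change was -0.42 (SE 0.10, edgeR adjusted p = 0.0141), with -0.03 (adjusted p = 0.812) under the marker scaling, and the adjusted p was 0.0571 without KO-3 and 0.0502 without WT-3. The kinase genes *Btk* and *Syk* and the adaptor gene *Gab2* had log2 fold changes of -0.65, -0.36 and -0.23. The *Btk* call passed in 8 of 15 alternatives. Of the IgE receptor genes, then, only the gamma chain was above 3 counts. The 10 macrophage markers listed beside them summed to 1230 to 1260 CPM in the KO libraries and 1520 to 1630 in the WT libraries, with 6 lower and 1 higher, and their part in the lower calls was not tested. The marker scaling uses this list, so by construction a gene that falls as these markers do moves toward 0 under it. For such genes it is no independent check.

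Of 5 surface receptor genes tested, *Cd63*, a granule membrane protein found in many cells, rose by 0.18 and the other 4 did not pass. The share of all genes tested that was higher was 17.7%. *Kit*, the stem cell factor receptor, had 144, 150 and 196 counts in KO-1, KO-2 and KO-3 and 183, 241 and 218 in WT-1, WT-2 and WT-3, or 11.9 ± 0.698 CPM against 14.9 ± 1.89 (SD, n = 3). The counts overlapped while the CPM did not, with the KO libraries lower. The log2 fold change was -0.33 (SE 0.12, edgeR adjusted p = 0.0795), -0.43 (adjusted p = 0.0329) without WT-1 and 0.07 under the marker scaling. *Il1rl1*, the receptor of interleukin-33, and *Csf2rb* and *Il3ra*, chains of the interleukin-3 receptor, had log2 fold changes of 0.29, -0.31 and -0.14 and did not pass. *Il1rl1* was called higher under the marker scaling (0.69, adjusted p = 0.0419). *Mrgprb1* and *Mrgprb2*, receptors that let mast cells respond without IgE, were at 0 in every library, and *Cd200r3* did not exceed 3 counts.

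Of 6 tested enzymes of lipid mediators, 1 was higher, 2 were lower and 3 did not pass. *Ltc4s*, the synthase of cysteinyl leukotrienes, had 138, 97 and 160 counts in KO-1, KO-2 and KO-3 and 11, 5 and 4 in WT-1, WT-2 and WT-3. The groups were far apart, with a log2 fold change of 4.35 (SE 0.33, edgeR adjusted p = 5.7e-05). Upstream of it, *Alox5* and *Alox5ap*, which make the leukotriene precursor, had log2 fold changes of -0.17 and -0.27 and did not pass, although *Alox5ap* was called lower in 3 of 15 alternatives. The prostaglandin D synthase gene *Hpgds* and the phospholipase gene *Pla2g4a* were lower by edgeR, with log2 fold changes of -0.62 (adjusted p = 0.0289) and -0.18 (adjusted p = 0.0319). The lower calls passed in 9 and 4 of 15 alternatives, and under the marker scaling *Pla2g4a* was called higher (0.21, adjusted p = 0.0175). *Ptgs1* had a log2 fold change of 0.07 and did not pass.

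Among transcription factors of the mast cell lineage, *Gata2* had the largest difference. Its counts were 411, 444 and 474 in KO-1, KO-2 and KO-3 and 41, 72 and 68 in WT-1, WT-2 and WT-3, or 32.5 ± 1.69 CPM against 4.21 ± 1.16 (SD, n = 3). Every KO library was above every WT library, with a log2 fold change of 2.95 (SE 0.18, edgeR adjusted p = 1.8e-05). *Tal1* and *Lmo2*, partners of GATA2 in blood and endothelial cells, rose by 1.55 and 0.99. *Spi1* and *Runx1*, factors of myeloid cells, had log2 fold changes of -0.55 (edgeR adjusted p = 0.00757) and -0.24 (adjusted p = 0.0381). *Mitf* varied within the groups, with 199, 48 and 196 counts in KO-1, KO-2 and KO-3 and 78, 34 and 82 in WT-1, WT-2 and WT-3, and did not pass (log2 fold change 1.26, edgeR adjusted p = 0.104). It passed in 3 of 15 alternatives, without KO-2 (1.68, adjusted p = 0.00876), under the marker scaling (1.67, adjusted p = 0.0196) and with the replicate number as a block (1.17, adjusted p = 0.00945). *Stat5a* and *Stat5b* did not pass, and *Gata1*, a factor of mast cells, megakaryocytes and red cells, was at 0 in every library.

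Of the growth factors for mast cells, *Kitl*, the stem cell factor gene, rose. It had 1294, 665 and 910 counts in KO-1, KO-2 and KO-3 and 116, 110 and 116 in WT-1, WT-2 and WT-3, or 71.5 ± 30.2 CPM against 7.96 ± 0.396 (SD, n = 3). The groups were far apart although KO-1 was well above KO-2, with a log2 fold change of 3.16 (SE 0.28, edgeR adjusted p = 0.00014). *Il33* and *Tslp*, alarm cytokines of tissue cells, had log2 fold changes of 0.08 and 0.81 and did not pass. *Il3*, *Il4* and *Il13* were at 0 in every library. Of the genes for histamine breakdown and reception only *Hrh1* was tested, with 7, 6 and 52 counts in KO-1, KO-2 and KO-3 and 14, 23 and 32 in WT-1, WT-2 and WT-3. It did not pass, and KO-3 stood apart. *Hnmt*, *Aoc1*, *Hrh2*, *Hrh3* and *Hrh4* did not exceed 2 counts.

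The genes that rose most on the program list, *Ltc4s*, *Kitl*, *Gata2* and *Srgn*, are not restricted to mast cells, and endothelial cells are known to make *Kitl*, *Gata2*, *Srgn*, *Tal1* and *Lmo2*. Endothelial markers moved with them, with 9 of 10 higher and 0 lower, beside 17.7% and 12.5% of all genes tested. Their median log2 fold change was 2.43, with summed levels of 1400 to 2030 CPM in the KO libraries and 257 to 266 in the WT libraries. Their part in the rise of these genes and of *Tpsab1* was not tested. Platelet and megakaryocyte markers, the list that holds *Pf4*, summed to 33.2 to 47.5 CPM against 6.44 to 9.62, with 3 of 4 tested genes higher. *Pf4* alone gave 38.9, 27.2 and 29.3 CPM in KO-1, KO-2 and KO-3. *Ppbp* had a log2 fold change of 0.23 and did not pass. Neutrophil markers summed to 7.2 to 10.2 CPM against 3.21 to 3.91, with 2 of 3 tested genes higher and *Elane*, which defines early granulocytes, at 0. *S100a8* alone gave 6.06, 3.98 and 4.06 CPM in KO-1, KO-2 and KO-3. *Csf3r* had a log2 fold change of -0.41 and did not pass. Of the untested genes, *Ly6g* had 15, 10 and 7 counts in KO-1, KO-2 and KO-3 and 0 in each WT library. *Cxcr2* had 0, 1 and 1 counts against 0, 5 and 3, and *Retnlg* 0, 0 and 1 against 0, 1 and 3. Of these lists the part in the *Tpsab1* counts was not tested either.

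**Figure D3:**
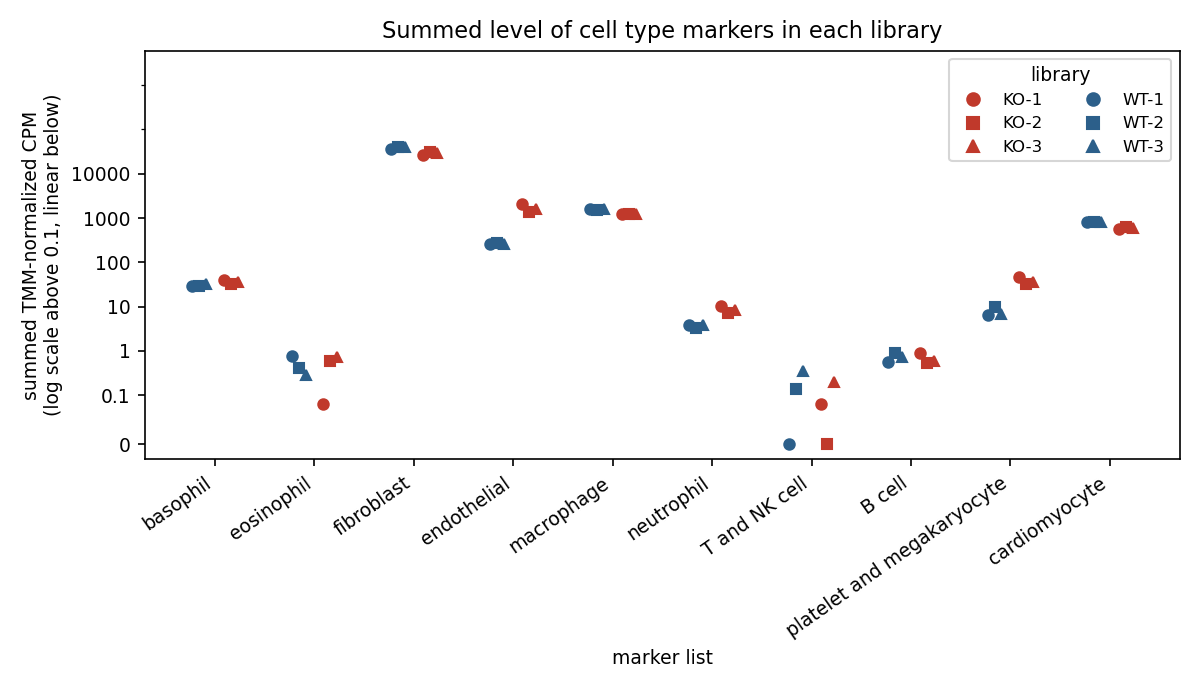
Summed TMM-normalized CPM of the marker list of each other cell type, 1 point a library, on an axis that is logarithmic above 0.1 and linear below. Endothelial, platelet and neutrophil lists are higher in every KO library than in any WT library, fibroblast, macrophage and cardiomyocyte lists are lower, and the T and NK cell list lies near 0.

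Basophils share *Hdc*, *Ms4a2* and *Fcer1a* with mast cells. Their 6 listed markers summed to 31.9 to 40 CPM in the KO libraries and 29.4 to 31.6 in the WT libraries, so that the sums did not overlap. Nearly all of this came from *Il3ra* and *Itga2*, which other cells also express, and of the 2 only *Itga2*, an integrin chain, was higher (log2 fold change 1.31). Of the 4 others, *Mcpt8*, a basophil protease, had 17, 6 and 2 counts in KO-1, KO-2 and KO-3 and 0 in each WT library, *Cd200r3* did not exceed 3 counts, and the protease gene *Prss34* and the cytokine gene *Il4* were at 0 in every library. The part of basophils in the *Tpsab1* counts was not tested. Eosinophil markers did not exceed a sum of 0.77 CPM in any library.

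Next to *Tpsab1* on chromosome 17, no tested gene passed the threshold. The table lists 8 other genes within 100 kb, of which the tryptase and serine protease genes *Tpsb2*, *Tpsg1*, *Prss28*, *Prss29* and *Prss34* were at 0 in every library. *Cacna1h*, a T-type calcium channel subunit, had 8, 9 and 9 counts in KO-1, KO-2 and KO-3 and 16, 23 and 11 in WT-1, WT-2 and WT-3, a log2 fold change of -0.86 (SE 0.36, adjusted p = 0.107; unadjusted p = 0.0422). *Baiap3* had 3, 5 and 2 against 0, 1 and 1 counts and was not tested. By edgeR, 0 of the 2 tested neighbours passed the adjusted threshold and 1 had an unadjusted p under 0.05.

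**Figure D4:**
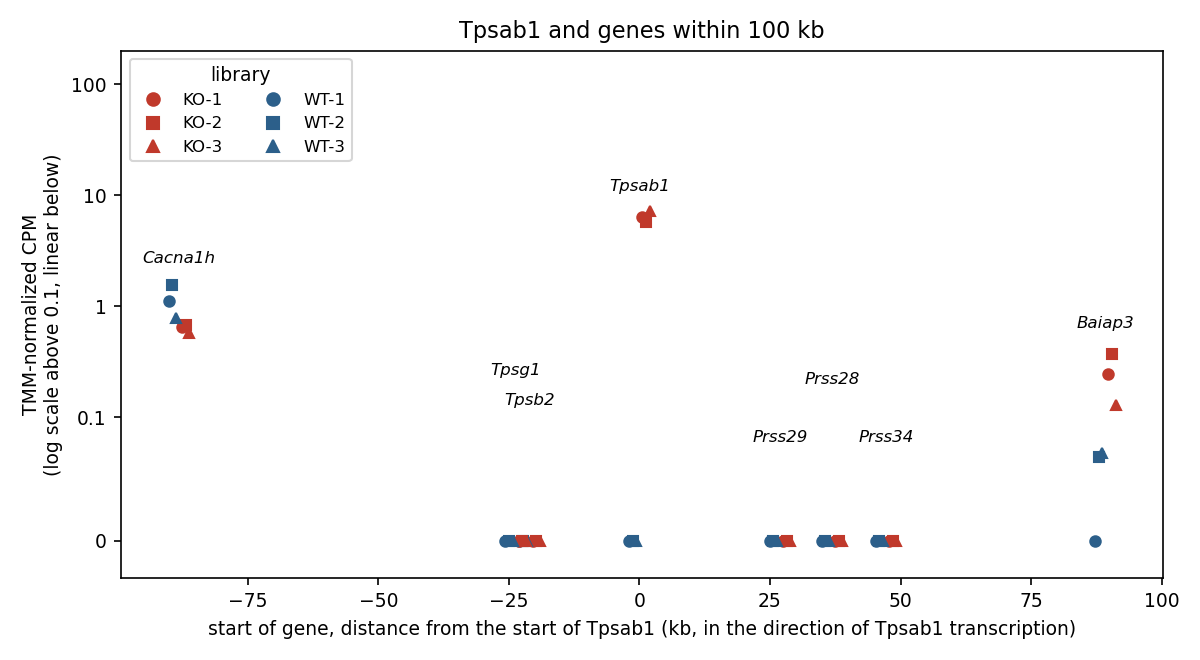
TMM-normalized CPM of *Tpsab1* and genes within 100 kb, 1 point a library, placed by the distance of each gene's start from that of *Tpsab1* in kb along the direction of *Tpsab1* transcription. The 3 KO points of *Tpsab1* lie between 5.78 and 7.16 CPM, the 5 tryptase and serine protease neighbours are at 0 in every library, and *Cacna1h* and *Baiap3* stay below *Tpsab1* in the KO libraries.

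The genes most like *Tpsab1* over the 6 libraries on log2(CPM + 1) were *Pgam1-ps2*, *Cpne5*, *Ap3b2*, *Dysf* and *Robo4*, with Pearson correlations of 0.9997, 0.9995, 0.9993, 0.9992 and 0.9992. None of them is on a mast cell list. Since the 6 libraries form 2 groups, a gene with an even difference between the labels, of whatever size, correlates with *Tpsab1*, and 266 tested genes reached 0.99. Among program genes the correlation was 0.99 for *Gata2* and *Ltc4s*, 0.98 for *Kitl* and *Srgn*, -0.79 for *Kit* and -0.88 for *Fcer1g*, which is given as a description of the same libraries.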

How the data were processed

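Each of the 6 libraries was sequenced from RNA enriched with oligo(dT) after a stranded preparation, as paired reads of 150 bases. Per the submitters' notes and the study's methods the reads were mapped with HISAT2 (builds named mm10 and GRCm38.p4), and edgeR is named too; versions, the counting tool, its strand setting and the annotation are not given in the sources used here. The authors deposited a count per gene and library, not normalized, and an FPKM value, which is that count divided by the library total and by 1 length per gene (the implied length differed by at most 0.099% between libraries). How that length was set is not given in the sources used here, and it matched neither the merged exons nor the summed transcripts of GENCODE vM21 within 1% for most genes (14.6% and 18.9% of 15580 matched). Every row has a gene name.

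The test was the quasi-likelihood test of edgeR 4.0.16 on R 4.3.3 (filterByExpr, TMM, glmQLFit, glmQLFTest, all 6 libraries, no covariate) and Benjamini-Hochberg adjusted over 14084 genes, with 0.05 as the threshold. CPM are TMM-normalized. Alternatives were: all genes with a count, genes averaging 1 CPM or more, DESeq2 1.42.0, library size, upper quartile, scaling to cardiomyocyte and macrophage markers, limma 3.58.1 on log2(FPKM + 1) and log2(FPKM + 0.1), a block for the replicate number and each library left out. The code was tested on simulated data. Named were the 8 members, up to 4 genes with the largest change per role list, 7 further mast cell genes, all neighbours within 100 kb and the 5 genes most like *Tpsab1*; other list genes were added after their values were seen. Some list genes and neighbours enter the counts of genes and are not reported here by name. The members and lists were chosen with earlier results of these data known. No source says whether libraries of a group came from separate animals, so p-values measure only the spread between these libraries. Libraries of a group differed in 21.5% to 31.1% of genes at an unadjusted p of 0.05 (binomial test against counting error only), which checks for a library deposited in duplicate and not for separate preparations.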

Additional observations from a re-analysis of the deposited data

How the results depend on the processing

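Scaling to cardiomyocyte and macrophage markers gave 8454 higher and 46 lower genes over all genes tested, 19 higher and 0 lower program genes, and 1 called neighbour of *Tpsab1*. It turned the sign of the log2 fold change of *Ndst2* (0.31), *Kit* (0.07), *Csf2rb* (0.09), *Alox5ap* (0.12), *Pla2g4a* (0.21), *Hrh1* (0.33) and *Hdc* (0.24). Leaving out 1 library at a time gave 1131 to 1614 lower genes (1131 without KO-3), 3 to 7 lower program genes (4 without KO-1, 5 without KO-2, 5 without WT-2, 3 without WT-3), and log2 fold changes of -0.21 to 0.41 for *Il33*, -1.63 to 0.35 for *Hrh1* and -0.43 to 0.53 for *Hdc*. The cause was not tested. With a limit of 0 counts, 5 members had a read in any library, against 3 above 3 counts. Deviations from the group means correlated weakly between same-numbered libraries (r = 0.017, 0.017 and 0.031). Between libraries of different number, r was -0.015 to -0.003. These small values do not settle whether the numbers pair the libraries. With the replicate number as a block 13 program genes were higher and 8 lower, with *Mitf* past the threshold (1.17, adjusted p = 0.00945) and *Btk* not (-0.66, adjusted p = 0.0587). DESeq2 gave 12 and 6. The program genes *Srgn*, *Rab27b*, *Inpp5d*, *Lyn*, *Lat2*, *Cd63*, *Ltc4s*, *Gata2*, *Tal1*, *Lmo2* and *Kitl* passed in all 15 alternatives. The fitted log2 fold change of *Tpsab1*, 9.50, is set by the small prior count added to 0 and is no bound (8.98 by DESeq2, 1.64 on log2(FPKM + 1) and 4.46 on log2(FPKM + 0.1)). At this depth a member with 0 counts could still be present at under 0.193 to 0.246 CPM, so absence was not shown.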
